A study of Mus musculus with 202 samples.

Results

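The 36 genes described here encode proteins that fuse and divide mitochondria, copy and transcribe the mitochondrial genome, remove damaged mitochondria, and bring proteins into the organelle or break them down there. They were read by gene symbol from a count table holding 23995 gene symbols, and all 36 were present. Levels are given as CPM (counts per 1000000 gene counts of a library) for comparisons between samples, and as the authors' RPKM, which also divides by gene length, for comparisons between genes. The RNA came from 202 single oocytes of mice, taken in the second meiotic metaphase (MII), where an ovulated egg waits for sperm. The series concerns prenatal androgen exposure and polycystic ovary syndrome. Libraries with a minimum of 100000 gene counts and 4000 detected genes were used, which kept 157 oocytes.

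All mice were C57Bl/6J, and the 11 groups differed by generation and by the treatment of the female founder (F0) of the lineage. She had a control diet (CD) or the HFHS diet, and received either dihydrotestosterone (DHT), which is an androgen that cannot be turned into oestrogen, or its vehicle (Veh). F1 had CD+Veh (10 kept oocytes), CD+DHT (8), HFHS+Veh (14) and HFHS+DHT (13). F2 had CD+Veh (16 oocytes of 4 animals), CD+DHT (25 of 5 animals), HFHS+Veh (20 of 4 animals) and HFHS+DHT (5, with no animal named). F3 had CD+Veh (20), CD+DHT (13) and HFHS+Veh (13). Animals were inferred from the number before the point in the sample titles. The titles gave the groups, and the characteristics of 36 oocytes contradicted them. The hormone differed for all 15 oocytes of F1 HFHS+Veh and all 5 of F2 HFHS+DHT. The generation differed for 8 oocytes of F2 HFHS+Veh, labelled F3 (5 from animal 10 and 3 from animal 5), and for 8 oocytes of F3 HFHS+Veh, labelled F2 (from animal 22).

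Kept libraries held 133654 to 16359078 gene counts (median 2122239) and 4603 to 13419 genes. Of 12 oocyte markers, 11 had a median of at least 10 CPM. Of 34 cumulus and granulosa markers, from the somatic cells that surround the oocyte, 24 had a median of 0. The library of oocyte 21 in F3 CD+Veh went against its label: its oocyte markers summed to 168 CPM against a median of 14468 over all kept libraries. Its cumulus markers summed to 58190 CPM, and spike-in RNA took 14.33% of its counts. In that library Mfn1 was at 9.68 CPM and Dnm1l at 6.46 CPM, below the other 19 F3 CD+Veh oocytes, and Bnip3l was at 852 CPM, above all of them. Results of F3 are therefore also given without it.

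Mitochondria join and split continually. Mitofusins tie outer membranes together, Opa1 then fuses the inner membranes, and the dynamin Dnm1l, drawn to the surface by adaptors such as Mff and Fis1, pinches the organelle apart. The mitochondrial genome is packed and copied by nuclear-encoded proteins, and almost every other mitochondrial protein enters through the TOM complex of the outer membrane and the TIM23 complex of the inner membrane. In the egg the stock of mitochondria is large, is passed on by the mother alone and divides little until the embryo has implanted.

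The 36 genes spanned the range from among the most abundant messages of the oocyte to none. By median RPKM over the 157 oocytes the 5 highest were Mff (246), Dnm1l (80.7), Bnip3 (30.2), Mfn1 (28.1) and Phb2 (24.1). At the other end 13 genes tied at a median of 0: Mfn2, Ppargc1a, Esrra, Polg, Polg2, Polrmt, Pink1, Sirt3, Sirt5, Clpp, Timm50, Tomm40 and Tomm70a. The other 23 had a count in most of the 157 oocytes and are called detected, as were 9008 of the 23995 genes in the whole table. Their median RPKM was 6.08, beside 6.02 for those 9008 genes, so the detected members were neither high nor low among detected genes. That comparison leaves out the 13 members with a median of 0. Mfn1, Dnm1l, Mff and Bnip3l had a count in each of the 157 oocytes. Partner genes differed by large factors, as the next paragraphs give. Those pairs were chosen after their values were seen, so their ratios are a description without a test.

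**Figure D1:**
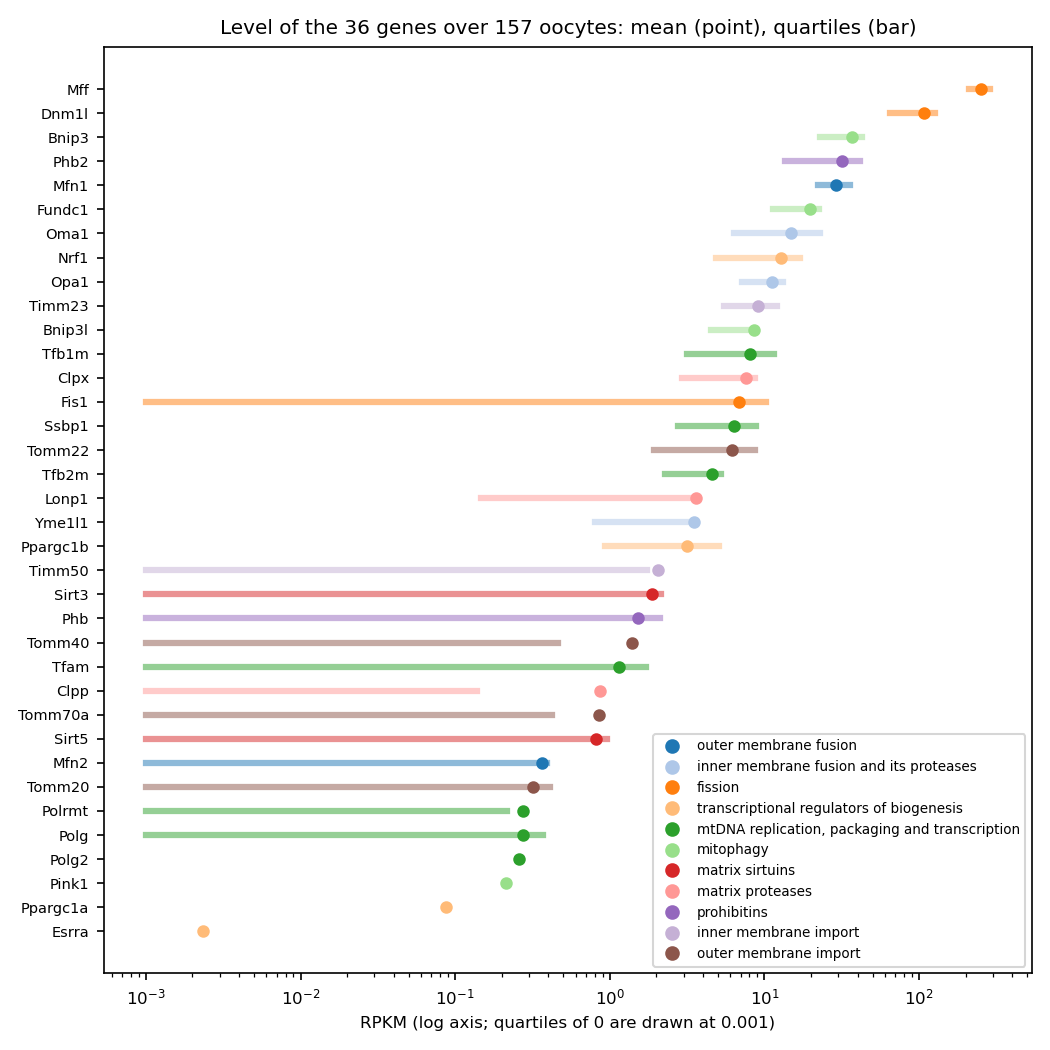
Level of each of the 36 genes over 157 oocytes, as RPKM on a log axis. Points are means and bars run from the lower to the upper quartile, with quartiles of 0 drawn at 0.001, and colours give the role of the gene. Mff and Dnm1l of fission lie at the top, while Mfn2, Polrmt, Polg, Pink1, Ppargc1a and Esrra lie at the bottom.

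Fusion of the outer membrane was represented almost wholly by Mfn1 (chr3:32529465-32579239, GRCm38, plus strand). Its mean was 29.1 RPKM against 0.362 for its paralogue Mfn2 (chr4:147873599-147904704, minus strand), 80.4 times as much. Mfn1 was above Mfn2 in 157 of 157 oocytes and in all 11 groups. Mfn2 had a count in 61 oocytes, and in none of the 13 F3 HFHS+Veh oocytes, where a count of 0 allows a pooled level of up to 0.392 CPM. Opa1 (chr16:29579334-29654884, plus strand), the fusion dynamin of the inner membrane, had a mean of 11.1 RPKM. Oma1 (chr4:103313812-103371868, plus strand), the protease that cuts Opa1 under stress, had a mean of 14.8 RPKM, 4.23 times that of Yme1l1, which cuts Opa1 in unstressed cells. Oma1 was the higher of that pair in 133 of 157 oocytes. The mean of Yme1l1 includes oocyte 21 of F3 CD+Veh at 236 CPM, against a median of 4.71 CPM in the other 19 oocytes.

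Opa1, Oma1 and the mitophagy receptor Bnip3 are the 3 genes with a median RPKM above 9 whose start regions held the letters bound by NRF1, the activator that another of the 36 genes encodes. Their 250 bases upstream of the RefSeq start are shown, 5′ to 3′ on the gene's strand (RefSeq, GRCm38.p6), with NRF1 letters in capitals. The windows are chr16:29579084-29579333 (plus), chr4:103313596-103313845 (plus) and chr7:138909507-138909756 (minus).
Opa1: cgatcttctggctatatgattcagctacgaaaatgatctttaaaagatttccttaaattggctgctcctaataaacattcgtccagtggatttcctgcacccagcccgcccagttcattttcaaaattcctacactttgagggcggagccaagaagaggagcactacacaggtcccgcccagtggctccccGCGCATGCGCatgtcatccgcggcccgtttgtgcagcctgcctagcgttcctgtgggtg
Oma1: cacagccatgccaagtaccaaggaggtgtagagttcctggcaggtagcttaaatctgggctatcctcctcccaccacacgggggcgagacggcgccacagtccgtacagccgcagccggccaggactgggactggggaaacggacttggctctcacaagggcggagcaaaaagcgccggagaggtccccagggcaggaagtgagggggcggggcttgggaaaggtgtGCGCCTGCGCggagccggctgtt
Bnip3: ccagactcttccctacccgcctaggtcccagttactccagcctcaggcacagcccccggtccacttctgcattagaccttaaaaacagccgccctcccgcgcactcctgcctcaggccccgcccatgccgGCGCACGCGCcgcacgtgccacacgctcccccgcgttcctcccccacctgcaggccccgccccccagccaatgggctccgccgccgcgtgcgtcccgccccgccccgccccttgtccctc
The search read GCGC, any base and TGCGC on both strands from 250 bases before to 50 after each start. The Opa1 match reads the same on both strands and begins 59 bases before the start, against 23 bases for Oma1 and 120 for Bnip3. The letters occurred in 7 of the 34 genes with a RefSeq window (Opa1, Oma1, Polrmt, Pink1, Bnip3, Phb and Tomm20) in 17 of 92 other genes of the pathway (18.5%, against 20.6% of the members), and in 1402 of all 27025 genes (5.19%). The AAGGTCA letters read by oestrogen-related receptors, searched the same way, occurred in Sirt5 and Timm23, in 7 of the 92 other pathway genes and in 5.38% of all genes. A match is only a match of letters.

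Fission was served by the 2 most abundant of the 36 messages. Mff (chr1:82724890-82752394, plus strand), the outer membrane adaptor that recruits the dynamin, had a mean of 251 RPKM, and Dnm1l (chr16:16312230-16358959, minus strand), the dynamin itself, a mean of 108 RPKM. The other adaptor, Fis1, had a mean of 6.82 RPKM, so that Mff exceeded it 36.9 times and was the higher in 156 of 157 oocytes. Dnm1l exceeded Mfn1 in 156 of 157 oocytes, with a ratio of means of 3.72. Transcripts on the opposite strand overlap both Mff and Dnm1l, and the use of strand in the counting is not given in the sources used here.

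Among the transcriptional regulators of mitochondrial biogenesis, Nrf1 was the highest with a median of 10.6 RPKM, although its counts and RPKM implied a gene length that varied between libraries by a factor of 0.693 to 1.44. Of the 2 PGC-1 coactivators, Ppargc1b had a count in 134 oocytes and Ppargc1a in 27. The ratio of their mean RPKM was 36.04. Esrra, the nuclear receptor that PGC-1 proteins act on, had a count in 2 of 157 oocytes.

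The genes that keep the mitochondrial genome fell into a detected and a scarcely detected set. The methyltransferase Tfb1m had a mean of 8.02 RPKM, Ssbp1, which coats single-stranded mitochondrial DNA, 6.34 RPKM, and the transcription factor Tfb2m 4.56 RPKM. Tfam, which packs the genome, had a mean of 1.15 RPKM and a count in 111 oocytes. The polymerase subunits Polg (0.275 RPKM) and Polg2 (0.257 RPKM) and the mitochondrial RNA polymerase Polrmt (0.276 RPKM) had counts in 68, 28 and 51 oocytes. Pseudogene copies of at least 95% identity over at least 200 bases exist for 9 of the 36 genes: Tfb2m, Ssbp1, Bnip3, Yme1l1, Sirt5, Clpx, Phb, Timm23 and Tomm20. Their counts are uncertain, since reads of gene and copy may be mixed or lost.

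Mitophagy receptors, which mark mitochondria for removal from their own surface, were all well detected. Bnip3 had a mean of 36.6 RPKM, Fundc1 19.7 RPKM and Bnip3l 8.51 RPKM. The kinase Pink1, which acts in the other mitophagy route by recruiting a ubiquitin ligase, had a mean of 0.212 RPKM and a count in 36 oocytes. Bnip3 was above Bnip3l in 153 of 157 oocytes. The means include oocyte 21 of F3 CD+Veh, at 842 CPM of Bnip3, 852 of Bnip3l, 449 of Fundc1 and 0 of Pink1.

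Complexes of 2 gene products were unequal at the level of RNA. The inner membrane ring of prohibitins holds both Phb and Phb2, yet Phb2 (31.5 RPKM) exceeded Phb (1.53 RPKM) 20.6 times and was the higher in 147 of 157 oocytes. Of the matrix protease ClpXP, the unfolding subunit Clpx (7.61 RPKM) exceeded the peptidase Clpp (0.862 RPKM) 8.82 times. Lonp1, the other main matrix protease, had a mean of 3.61 RPKM, and the deacylases Sirt3 and Sirt5 were at 1.86 and 0.809 RPKM. The low level of Phb is uncertain, since a pseudogene matches it at 99.9% identity.

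Import genes lay in the middle and lower range. In the TOM complex Tomm22, a receptor, had a mean of 6.21 RPKM, against 1.39 for the channel Tomm40, 0.855 for the receptor Tomm70a and 0.317 for the receptor Tomm20. Tomm20 has 4 pseudogene copies of high identity. Of the TIM23 complex, the channel Timm23 (9.12 RPKM) exceeded its receptor Timm50 (2.04 RPKM) 4.46 times, and Timm23 has 5 such copies. These means include oocyte 21 of F3 CD+Veh. There Tomm40 was at 213, Tomm70a at 184 and Timm50 at 136 CPM, against a median of 0 in the other 19 oocytes of the group. Tomm22 was at 48.4, Tomm20 at 12.9 and Timm23 at 3.23 CPM in that library.

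The genes also differed in how much they varied between oocytes. Among 61 F2 oocytes of 13 animals, the SD of log2(CPM + 1) within animals was 0.30 for Dnm1l, lower than in all but 1.68% of the 9008 detected genes. It was 0.39 for Mfn1, and 1.499 for Phb2, which was above 96.7% of them. Dnm1l ran from 159 to 572 CPM over these oocytes, while Phb2 ran from 0 to 165 CPM with a median of 40.9. Highly expressed genes vary less on this scale, so each gene was also set beside genes with a median CPM within a factor of 2. There Dnm1l lay at the 16.8th percentile of the SD over the same 61 oocytes, Tfb2m at the 3.33rd, Bnip3l at the 4.08th, and Phb2 and Lonp1 at the 98.0th. The median SD within animals of the 23 detected members was 0.95, against 1.04 for all detected genes, so the list as a whole was not set apart.

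The F2 generation allowed a test with animals as replicates, which asked whether oocytes of the CD+DHT or the HFHS+Veh lineage differed from CD+Veh. None of the 34 members that passed the filter on low counts passed the test in any of the 3 comparisons, which does not show that they were unchanged. Counts were summed per animal and tested with edgeR's quasi-likelihood test at a Benjamini-Hochberg adjusted p under 0.05. In CD+DHT against CD+Veh 0 of 34 members passed, beside 0% of 11962 genes. In HFHS+Veh against CD+Veh it was 0 of 34 beside 0%, and in CD+DHT against HFHS+Veh 0 of 34 beside 0%. DESeq2 called 0 members as well, and 2, 1 and 1 genes in all in the 3 comparisons, and limma called 0 genes. At an unadjusted edgeR p under 0.05 there was 1 member of 34 in the first (1.84% of all genes), 0 in the second (0.986%) and 1 in the third (1.04%). Ppargc1a was the gene in both cases. The groups share animals across these comparisons, so the 3 sets of values are not independent. Nothing in the labels says that the animals came from separate litters, so the p-values measure the spread between these animals.

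The abundant genes Mfn1, Dnm1l and Mff overlapped between the 3 groups. Mfn1 was at 118, 123, 142 and 180 CPM in the 4 CD+Veh animals, at 104, 115, 116, 127 and 154 CPM in the 5 CD+DHT animals, and at 91.2, 128, 153 and 191 CPM in the 4 HFHS+Veh animals. The lowest and the highest animal were both in HFHS+Veh, and the log2 fold change of CD+DHT against CD+Veh was -0.02 ± 0.17 (SE). Dnm1l ran from 298 to 406 CPM in CD+Veh, from 200.1 to 370 CPM in CD+DHT and from 244 to 357 CPM in HFHS+Veh. Its log2 fold changes against CD+Veh were -0.13 ± 0.19 in CD+DHT and -0.11 ± 0.20 in HFHS+Veh. Mff ran from 377 to 544, from 352 to 561 and from 369 to 491 CPM in the same order, with log2 fold changes of 0.19 ± 0.15 and 0.01 ± 0.16. These standard errors lay between 0.15 and 0.20. Scarcer members had wider errors, such as ± 1.63 for Ppargc1a in CD+DHT against CD+Veh. The widest was ± 1.86 for Clpp in HFHS+Veh against CD+Veh.

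**Figure D2:**
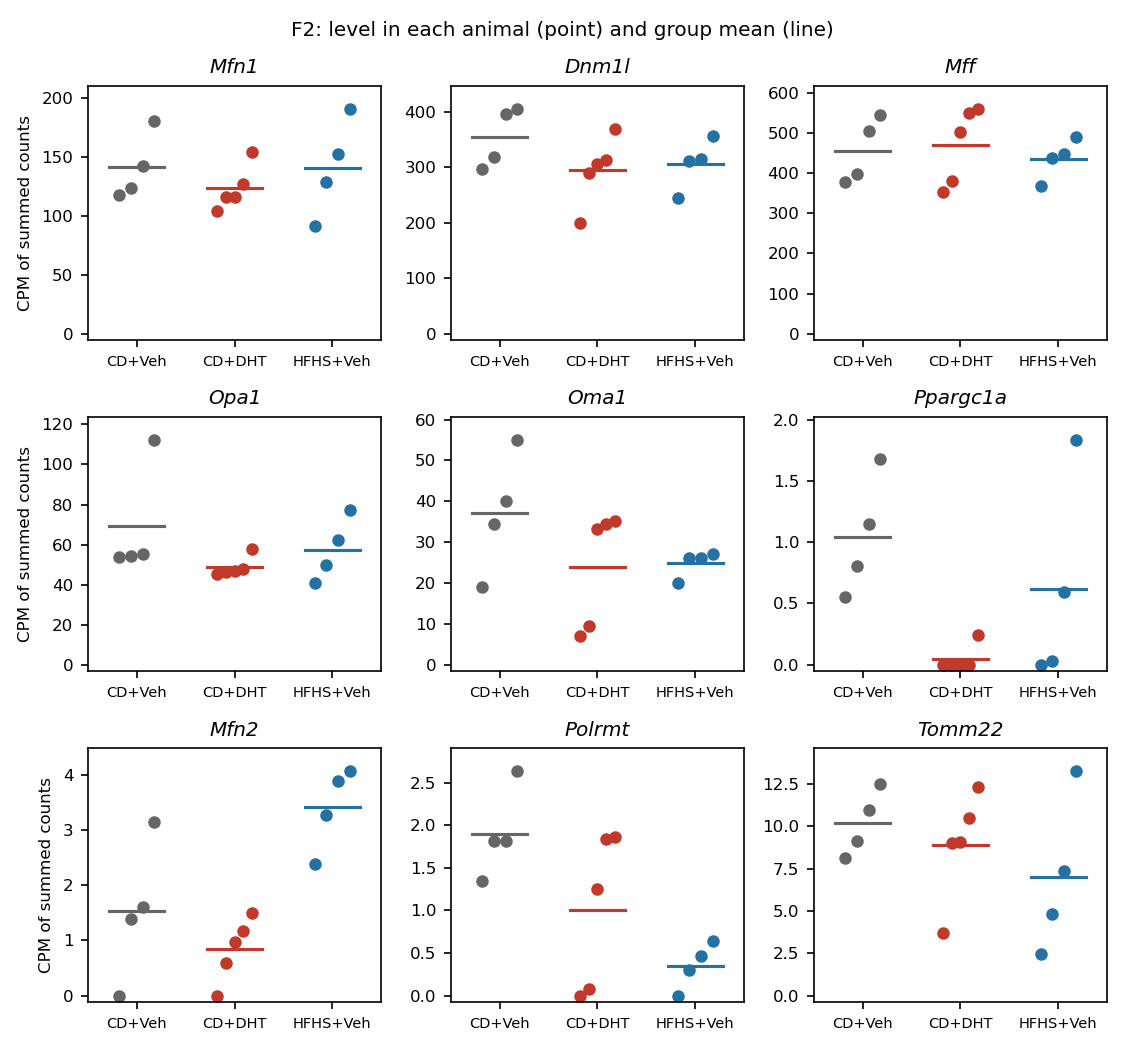
Level of 9 of the genes in each F2 animal, as CPM of counts summed over its oocytes, with horizontal lines at the group means. CD+Veh and HFHS+Veh have 4 animals each and CD+DHT has 5. Mfn1, Dnm1l and Mff overlap between all groups. Ppargc1a lies near 0 in the 5 CD+DHT animals, Polrmt at or below 0.640 CPM in the 4 HFHS+Veh animals.

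Between CD+DHT and CD+Veh, Ppargc1a, the inducible PGC-1 coactivator, had the smallest p of the members with a lower level. It was at 0.551, 0.805, 1.15 and 1.68 CPM in the CD+Veh animals (14, 8, 23 and 20 counts). In CD+DHT 4 animals had no count and the other had 6 (0.240 CPM). The groups did not overlap, which held for 1 of 34 members and for 0.936% of all genes tested. The counts came from 6 of 16 CD+Veh oocytes and 1 of 25 CD+DHT oocytes. The log2 fold change was -4.12 ± 1.63, its size depending on how counts of 0 are treated (edgeR unadjusted p = 0.0221, adjusted p = 0.99994). Across the 21 alternative settings that gave a value, the adjusted p ran from 0.974 to 1. In HFHS+Veh the gene was at 0, 0.0277, 0.597 and 1.84 CPM, which overlapped both other groups.

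Opa1 had the next smallest p among the lower members, with 45.1, 46.4, 46.8, 47.7 and 57.6 CPM in CD+DHT. Its CD+Veh animals were at 54.0, 54.3, 55.3 and 112 CPM. A single animal, number 3, set the upper end of CD+Veh, and the groups overlapped. The log2 fold change was -0.30 ± 0.19 (edgeR unadjusted p = 0.137, adjusted p = 0.99994), and its unadjusted p rose to 0.493 without animal 3. Of the members with a higher level, Sirt5, a matrix desuccinylase, had the smallest p (log2 fold change 1.59 ± 1.26, edgeR unadjusted p = 0.222), followed by Mff (0.19 ± 0.15, p = 0.233). Neither passed. In all, 12 members were higher and 22 lower, with a median of -0.07 beside -0.01 for all genes tested.

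In HFHS+Veh against CD+Veh, Polrmt, the RNA polymerase of the mitochondrial genome, had the smallest p among the lower members. It was at 0, 0.299, 0.471 and 0.640 CPM in HFHS+Veh. In CD+Veh it was at 1.34, 1.81, 1.81 and 2.64 CPM, with no overlap between the groups. That held for 1 of 34 members and for 1.15% of all genes tested. The log2 fold change was -2.44 ± 1.24 (edgeR unadjusted p = 0.0674, adjusted p = 0.99997). Counts came from 10 of 16 CD+Veh and 5 of 20 HFHS+Veh oocytes. Tomm22 followed, at 2.45, 4.83, 7.35 and 13.28 CPM in HFHS+Veh against 8.15 to 12.5 CPM in CD+Veh (log2 fold change -0.60 ± 0.45, edgeR unadjusted p = 0.202). Its lowest value came from animal 10, whose labels conflict, and its unadjusted p was 0.446 without that animal. Among the higher members Mfn2 (1.33 ± 1.03, p = 0.214) and Tomm40 (1.32 ± 1.30, p = 0.325) came first, and neither passed edgeR's test. The median of the 34 members was -0.05, beside 0.02 for all genes.

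When CD+DHT was set against HFHS+Veh, the members with the smallest p were again scarce messages. Mfn2 was at 0, 0.594, 0.965, 1.16 and 1.49 CPM in CD+DHT. In HFHS+Veh it was at 2.39, 3.27, 3.89 and 4.08 CPM, so the groups did not overlap, as held for 1 of 34 members and 0.66% of all genes tested. Its log2 fold change was -1.998 ± 0.973 (edgeR unadjusted p = 0.0567, adjusted p = 0.99998). Its paralogue Mfn1, about 80.4 times as abundant over all oocytes, differed by -0.07 ± 0.17 in the same comparison. Ppargc1a was lower by 3.49 ± 1.60 on the log2 scale (edgeR unadjusted p = 0.0444, adjusted p = 0.99998). Polrmt (1.55 ± 1.17) and Yme1l1 (0.64 ± 0.51) had the smallest p among the higher members.

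**Figure D3:**
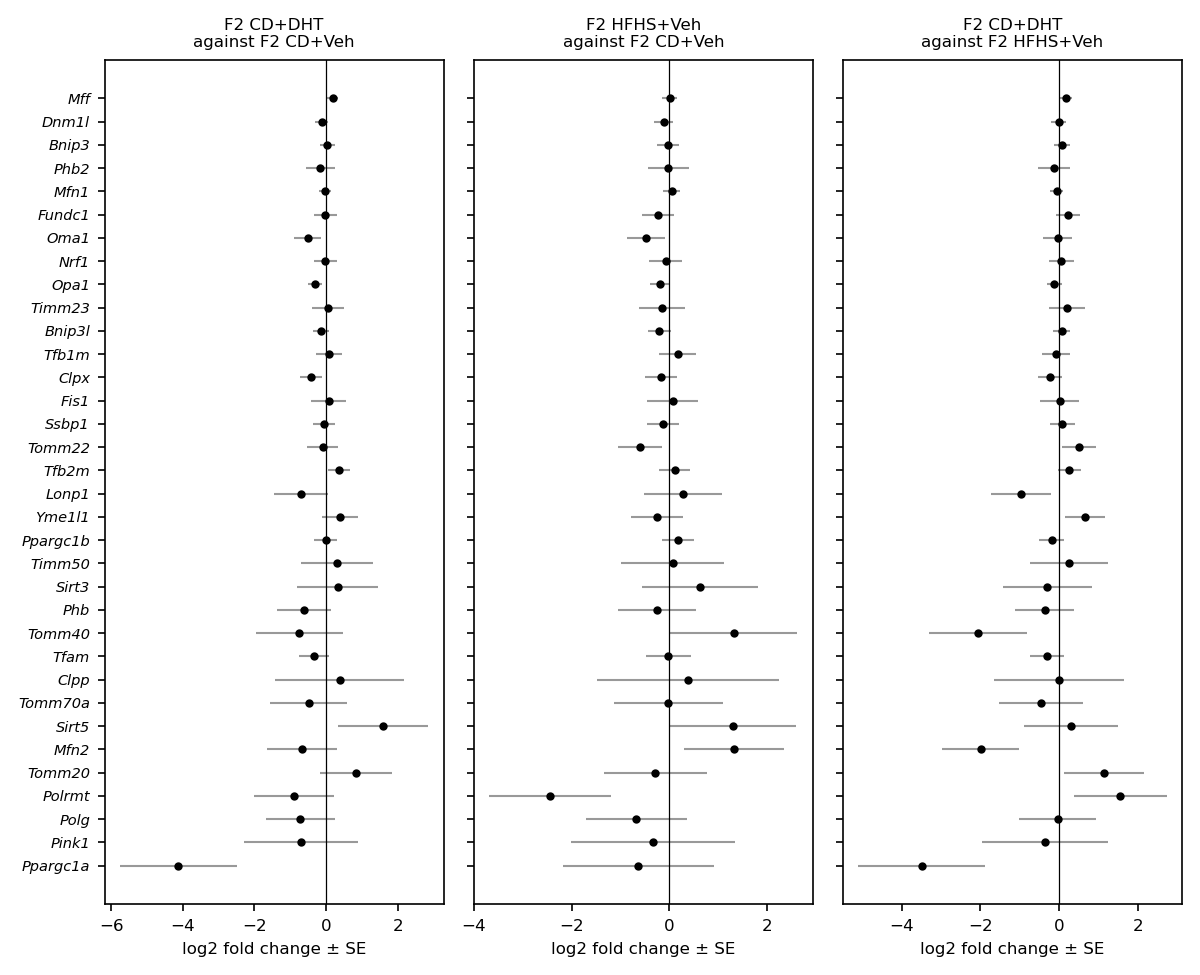
Log2 fold change with its standard error for the 34 members tested in the 3 comparisons of F2 groups, from the edgeR fit, ordered by mean RPKM from the highest at the top. Bars are short for abundant genes such as Mff and Mfn1 and long for scarce ones such as Ppargc1a and Polrmt, and no member passed the adjusted threshold.

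Animals of the same group differed in several members. In CD+DHT, Oma1 was at 7.07 CPM in animal 9 and 9.58 in animal 8, against 33.2 to 35.1 CPM in the other 3 animals. Oma1 had the largest share of its variance between animals of the 23 detected members, 46.5%. The median share was 11.2% for these 23 members, below the 14.03% for all detected genes. These shares were taken over the animals of all groups tested, so differences between groups enter them too. In the same animals 8 and 9, Phb2 was at 19.9 and 25.31 CPM against 56.5 to 70.1 CPM in the others, and Polrmt was at 0.0743 and 0 CPM against 1.25 to 1.86 CPM. Animals 8 and 9 also had the fewest genes per oocyte of the group, with medians of 7956 and 7771 against 9182 to 11803. Animal 10 of HFHS+Veh, with 8447 genes per oocyte, had the lowest Oma1 (19.97 CPM) and the lowest Phb2 (14.9 CPM) of its group. The part of gene detection in these values was not tested.

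For F1 no animal was named, so each group was 1 sample of cells with no test, and counts were pooled over oocytes. A member was measured where the mean of both pooled levels reached 5 CPM. In CD+DHT against CD+Veh 0 of 18 measured members differed by 2-fold or more, beside 3.94% of 7186 genes. In HFHS+Veh against CD+Veh it was 1 of 21 beside 3.35%, in HFHS+DHT against HFHS+Veh 0 of 20 beside 3.74%, and in HFHS+DHT against CD+DHT 1 of 19 beside 4.45%. These counts are near the background. The medians of the members were -0.06, 0.10, -0.18 and -0.01 in that order, beside -0.01, -0.01, -0.04 and -0.05 for all genes. Single oocytes moved them: leaving out 1 oocyte gave -0.14 to -0.03, 0.03 to 0.16, -0.27 to -0.02 and -0.09 to 0.07. The value of -0.02 was reached without oocyte 1 of HFHS+Veh, rich in cumulus RNA, and that of 0.03 without oocyte 11 of HFHS+Veh. The first comparison shares CD+Veh with the second, and each of the other groups also enters 2 comparisons.

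In F1 HFHS+Veh the protease Yme1l1 was at a pooled 19.48 CPM (95% Poisson interval 18.2 to 20.8). In CD+Veh it was at 8.74 CPM (7.55 to 10.06), a log2 ratio of 1.16. Oocytes ran from 2.505 to 114 CPM (median 11.9) in HFHS+Veh and from 0 to 23.1 CPM (median 8.47) in CD+Veh, so the groups overlapped. The ratio was 0.23 without oocyte 1 of HFHS+Veh, whose cumulus markers summed to 10042 CPM, and 0.89 without oocyte 6 of CD+Veh. Lonp1 was the next higher member (log2 ratio 0.82, and 1.16 without oocyte 11 of CD+Veh), and Ppargc1b (-0.46) and Dnm1l (-0.28) were the lowest. In F1 HFHS+DHT the import receptor Tomm22 was at a pooled 8.34 CPM (7.04 to 9.80), against 2.91 CPM (1.85 to 4.37, from 23 counts) in CD+DHT. That was a log2 ratio of 1.52, and it lay between 1.18 and 1.72 in the 20 of 21 leave-outs that kept it at the 5 CPM minimum. Without oocyte 12 of HFHS+DHT it was 1.25 at a mean level of 4.91 CPM. It was 0.87 by the median oocyte and 0.80 by mean RPKM, both under 2-fold, and by the mean oocyte Tomm22 was under the minimum level. In the comparisons by mean oocyte and by RPKM the single member past 2-fold was Nrf1, which was lower. By oocyte, Tomm22 ran from 0 to 13.02 CPM in HFHS+DHT and from 0 to 6.23 CPM in CD+DHT.

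The members furthest from 0 in the other F1 contrasts were below 2-fold. Between CD+DHT and CD+Veh, Ssbp1 was at 4.56 against 9.103 CPM (log2 ratio -0.998, just inside the limit) and Oma1 at 27.6 against 40.4 CPM (-0.55). Leaving out single oocytes moved the Ssbp1 ratio between -1.43 and -0.54 and put it past 2-fold in 12 of 18 cases. Tfb1m (0.38) and Timm23 (0.34) were the highest there. In HFHS+DHT against HFHS+Veh, Lonp1 (-0.77) and Oma1 (-0.65) were the lowest and Tfb1m (0.29) and Tomm22 (0.22) the highest. In HFHS+DHT against CD+DHT, Ssbp1 followed Tomm22 (0.79), and Phb2 (-0.57) and Timm23 (-0.45) were the lowest.

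**Figure D4:**
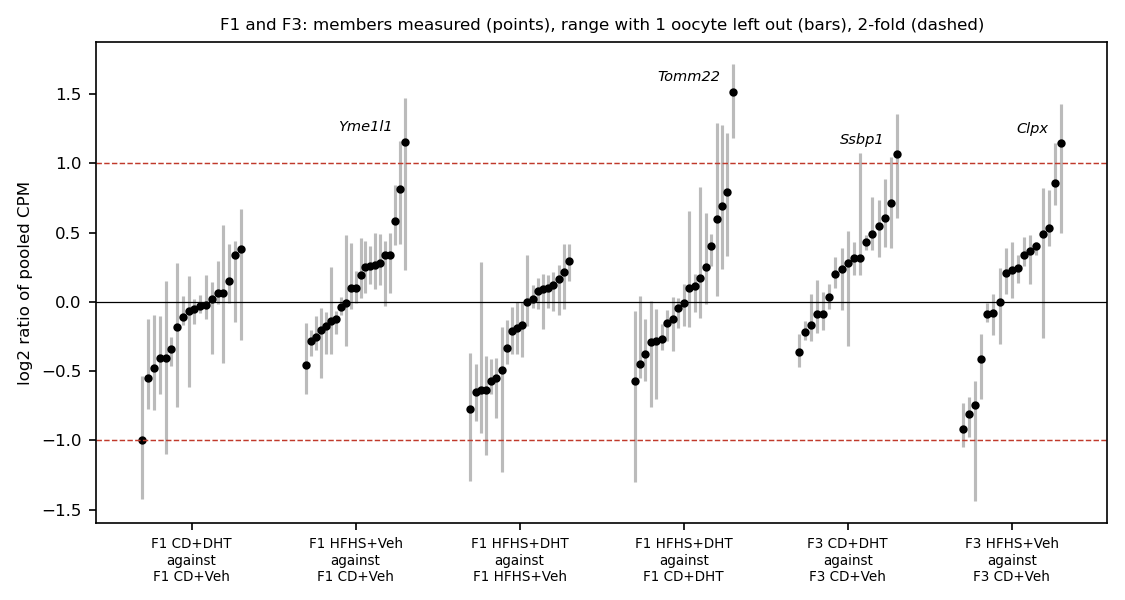
Log2 ratio of pooled CPM for each measured member (points, ordered by value) in the 4 F1 and 2 F3 comparisons. Vertical bars give the range when a single oocyte is left out, and dashed lines mark 2-fold. Yme1l1, Tomm22, Ssbp1 and Clpx lie past 2-fold, and of these the bar of Tomm22 alone stays beyond the line, over the 20 of 21 leave-outs in which it reached 5 CPM.

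For F3, at least 1 group of each comparison named no animal, and both comparisons used F3 CD+Veh. In CD+DHT against CD+Veh 1 of 17 measured members differed by 2-fold or more, beside 14.32% of 6957 genes. In HFHS+Veh against CD+Veh it was 1 of 17 beside 14.9% of 6718 genes. Both counts lie below the background share at this setting. By the median oocyte, HFHS+Veh against CD+Veh had 5 of 15 beside 12.62% of genes, and without cumulus-rich oocytes CD+DHT against CD+Veh had 4 of 17 beside 14.3045%. Ssbp1, the single-strand binding protein, was at a pooled 10.7 CPM (9.79 to 11.7) in CD+DHT against 5.098 CPM (4.54 to 5.71) in CD+Veh, a log2 ratio of 1.07. Its oocytes overlapped, from 0 to 16.3 CPM in CD+DHT and from 0 to 14.5004 CPM in CD+Veh. The ratio fell under 1 when any of 5 oocytes was left out: oocyte 14 of CD+DHT (0.61) and oocytes 3 (0.98), 10 (0.997), 16 (0.999) and 23 (0.95) of CD+Veh. Without oocyte 21 of CD+Veh, whose RNA went against its label, 2 members passed in place of 1. The share of all genes in that leave-out is not given here. The Ssbp1 ratio was 1.07 without that oocyte. By the mean oocyte it was 0.51, or 0.48 without oocyte 21, and by the median oocyte 1.12. By mean RPKM, Ssbp1 was not past 2-fold. Oocytes 14 and 15 of CD+DHT held 16359078 and 13853000 of the 47884707 pooled counts of their group. Ssbp1 counts and RPKM implied a gene length that varied between libraries by a factor of 0.907 to 1.72. Yme1l1 (0.72) was the next higher, and Dnm1l (-0.36) and Bnip3 (-0.22) were the lowest.

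In F3 HFHS+Veh against CD+Veh, Clpx, the unfolding subunit of ClpXP, was at a pooled 39.4 CPM (35.1 to 44.1) against 17.8 CPM (16.7 to 18.9), a log2 ratio of 1.15. It was 0.50 without the first oocyte of animal 22, 0.57 without that animal, whose labels conflict, and 1.43 without oocyte 21 of CD+Veh, in which Clpx was at 617 CPM against a median of 8.27 CPM in the other 19 oocytes. By the mean of oocyte CPM the ratio was -0.57 with oocyte 21 and 0.86 without it, by the median oocyte it was 1.60, and without all cumulus-rich oocytes it was 1.60. Ssbp1 was again higher (0.86), and Lonp1 (-0.92) and Phb2 (-0.81) were the lowest. Without oocyte 21 of CD+Veh, Ssbp1 was at 0.86 and Phb2 at -0.69, and 1 member passed, again with no share of all genes given. Lonp1 was at 526 CPM in that library against a median of 2.24 CPM in the other 19, and without it the Lonp1 ratio was -0.16, at a mean level of 3.73 CPM that is under the 5 CPM minimum. Without the first oocyte of animal 26, on the other side, it was -2.39, at a mean level of 3.97 CPM that is also under the minimum. The median over the 17 measured members was 0.23, beside -0.07 for all genes, and its sign turned by the mean oocyte (-0.44) and by RPKM (-0.04). In CD+DHT against CD+Veh it was 0.28 beside 0.03, and it turned to -0.19 and -0.18. These medians by the mean oocyte and RPKM include oocyte 21 of CD+Veh and are not given without it. By the mean oocyte, leaving it out moved Lonp1 in HFHS+Veh from -2.89 to 0.005, Phb2 from -1.55 to -0.61 and Ssbp1 from 1.14 to 1.11. In CD+DHT it moved Yme1l1 from -0.06 to 0.61, Bnip3 from -0.69 to -0.23 and Dnm1l from -0.26 to -0.33.

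Over all 11 groups, several members had levels in F3 that lay apart from those of the earlier generations, as did 48.2% of all genes measured. This grouping was chosen after the values were seen, and it is a description without a test. The labels name no batch, so generation and any batch that went with it cannot be told apart. Depth overlapped, with a median of 585662 to 2616474 gene counts per oocyte in the F3 groups and 434906 to 4704050 in the others. Of 20 members with a mean of at least 5 CPM, 8 had pooled levels in the 3 F3 groups that did not overlap those of the 8 F1 and F2 groups, beside 48.2% of 7280 genes. Of these, 5 were higher (19.38% of genes) and 3 lower (28.9%). The members' shares were 40% in all, 25% higher and 15% lower. In all, the members lay apart no more often than genes in general. Scaling by the total put the median gene at -0.12 on the log2 scale in F3, and median-ratio scaling put it at 0.18.

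Dnm1l had the largest difference of the higher members. It was at 587, 756 and 957 CPM in the F3 groups and between 241 and 360 CPM in the 8 others, a log2 ratio of 1.38. By oocyte, 42 of 46 F3 oocytes lay above the F1 and F2 median of 295 CPM. Bnip3 was at 86.4 to 100.4 CPM against 36.2 to 66.9 CPM (log2 ratio 0.93), with 45 of 46 F3 oocytes above the F1 and F2 median. Tfb2m was at 16.6 to 20.6 CPM against 6.07 to 11.1 CPM (1.03). Opa1 was at 85.6 to 125 CPM against 48.3 to 82.5 CPM (0.79), a narrow gap that closed when groups were compared by the median oocyte. Bnip3l (0.36) lay apart by less than 0.01 CPM, with 25.83 CPM as both the lowest F3 and the highest other level, and under 5 of 11 other settings. These 5 genes were higher under both scalings.

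The lower members were Ppargc1b, Tfb1m and Phb2. Ppargc1b was at 3.49 to 4.78 CPM in F3 against 11.5 to 19.8 CPM (log2 ratio -1.96), and 45 of 46 F3 oocytes lay below the F1 and F2 median of 14.495 CPM. Tfb1m was at 4.95 to 7.18 against 9.42 to 13.8 CPM (-0.90), so the related genes Tfb1m and Tfb2m went opposite ways, and Tfb1m exceeded Tfb2m by mean RPKM in 8 of the 11 groups. Phb2 was at 15.5 to 31.3 against 35.7 to 60.5 CPM (-1.07). Its groups overlapped under median-ratio scaling, by the mean oocyte, by the median oocyte and by mean RPKM. Fis1 had the largest log2 ratio of the measured members (-2.13) but overlapped, at 1.17 to 1.82 CPM in F3 against 0.474 to 10.95 CPM. By oocyte, 41 of 46 F3 oocytes lay below its F1 and F2 median of 5.21 CPM. It lay apart without all oocytes with a label conflict. Mff (0.10) and Mfn1 (0.08) overlapped between the generations. Oma1, Fundc1 and Lonp1 were at -0.13, -0.13 and -0.27 by total, and at 0.15, 0.16 and 0.01 under median-ratio scaling, so their sign turned with the scaling.

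Several other measures moved with generation. The median number of genes per oocyte was 7127 to 8225 in the F3 groups and 8226 to 10641 in the others. Pooled oocyte markers summed to 11011 to 14033 CPM in F3 against 15697 to 19899 CPM. Pooled cumulus markers summed to 984 to 2019 CPM in F3 against 150 to 1777 CPM, and 24 of the 34 had a median of 0 over all oocytes. Their part in the generation differences was not tested. Without the 4 oocytes richest in cumulus RNA, oocyte 21 among them, 8 of 20 members were apart again, beside 48.1% of genes. Yme1l1 took the place of Bnip3l, and the Dnm1l log2 ratio was 1.40. The labels of animal 22 conflict between F3 and F2. Its Dnm1l was at 754 CPM, against 1202 CPM in animal 26 of the same group and 200.1 to 406 CPM in the 13 F2 animals.

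**Figure D5:**
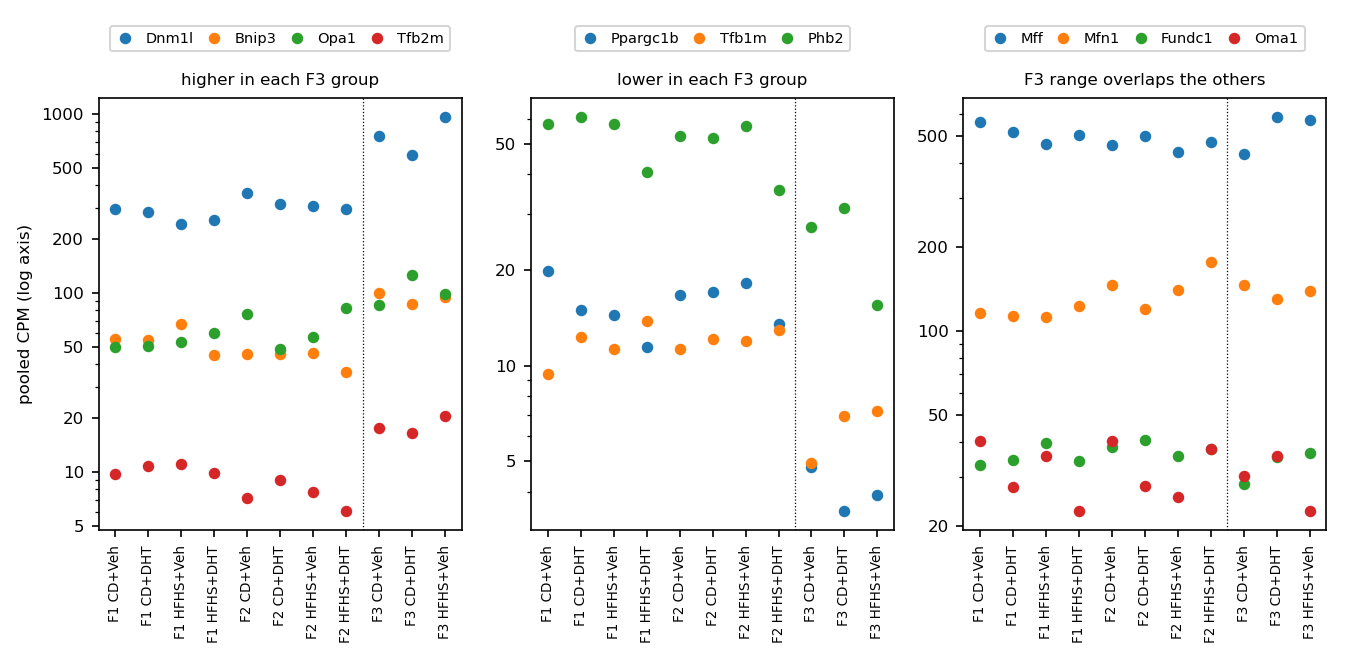
Pooled CPM of 11 members in the 11 groups, on log axes, with a dotted line between the F1 and F2 groups and the F3 groups. Dnm1l, Bnip3, Opa1 and Tfb2m are higher in each F3 group than in every other group, Ppargc1b, Tfb1m and Phb2 are lower, and Mff, Mfn1, Fundc1 and Oma1 overlap.

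The wider pathway was read from 113 further genes in 6 lists, covering dynamics and motility, mitochondrial DNA, mitophagy, import, proteases with chaperones and cristae, and regulators of biogenesis. In F2, 106 of them were tested and 0 passed in each comparison by edgeR's test, with 0 (CD+DHT against CD+Veh), 2 (HFHS+Veh against CD+Veh) and 1 (CD+DHT against HFHS+Veh) at an unadjusted p under 0.05. Their medians were 0.00, -0.02 and 0.01. Between CD+DHT and CD+Veh the smallest p belonged to the import gene Tomm34 (log2 fold change 0.30 ± 0.14) and the motility adaptor Rhot1 (0.25 ± 0.15) upward. Downward it belonged to the receptor Esrrb (-0.57 ± 0.31) and the import gene Gfer (-0.47 ± 0.31). In HFHS+Veh against CD+Veh it was Tomm34 (0.30 ± 0.15) and Sirt1 (0.39 ± 0.24) upward, and the ubiquitin ligase Park2 (-1.04 ± 0.49) and Timm44 (-0.71 ± 0.33) downward. Between CD+DHT and HFHS+Veh it was Timm9 (0.56 ± 0.26) and Chchd3 (0.43 ± 0.20) upward, and Bcl2l13 (-0.35 ± 0.17) and Inf2 (-1.20 ± 0.72) downward.

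Between generations, of the 15 measured genes of the import list, 0 were higher and 9 lower in every F3 group (Dnajc19, Gfer, Romo1, Timm44, Timm8b, Timm9, Tomm34, Tomm6 and Tomm7), with a median log2 ratio of -1.81, beside 28.9% of all genes lower and a median of -0.12. The import members did not all go that way. Tomm22 was lower without lying apart by pooled level (log2 ratio -1.35), though it lay apart by the median oocyte. Timm23 overlapped (-0.39). Tomm70a, under the 5 CPM minimum, was at 3.06 to 6.39 CPM in F3 against 0.127 to 2.99 CPM. Its median oocyte was at 0 on both sides. Only 16 of 46 F3 oocytes had a count, among them oocyte 21 of CD+Veh at 184 CPM. The list of mitochondrial DNA genes had 3 higher and 2 lower of 14, with a median of 0.33, beside the same 19.38% and 28.9% of all genes. The fusion, fission and motility list had 3 higher and 3 lower of 10, the mitophagy list 2 and 3 of 11, and the protease, chaperone and cristae list 1 and 3 of 13. The list of biogenesis regulators had 3 higher (Esrrg, Nfe2l2 and Sirt1) and 1 lower (Ppard) of 7. All lists together had 12 higher and 21 lower of 70, or 17.14% and 30% of them.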

How the data were processed

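Single MII oocytes were profiled with Smart-seq2 from polyA RNA, per the labels' protocols. Smart-seq2 is a full-length method without molecular identifiers. The deposited count table by the authors holds raw counts for each symbol (24582 lines, of which 93 were spike-ins or eGFP), and their RPKM table is scaled to gene length and library total, as the ratio of both tables shows for most genes checked. Per the submitters' processing notes, the tools include STAR 2.4.2a and Seurat 2.0, and the genome build was mm10. For the counting program, its annotation and strand, the answer is not given in the sources used here. Values of 494 repeated lines were summed. A CPM is a share of the captured RNA, not an amount per oocyte. A further 3 tables of normalised values for subsets of the oocytes were not used here. Of 202 oocytes, 45 were below the filter. No libraries were identical (0 pairs).

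F2 counts were summed per animal and fitted together with edgeR 4.0.16 in R 4.3.3 (TMM scaling, filterByExpr, quasi-likelihood test). That used 13 animals, and Esrra and Polg2 failed the filter. F2 HFHS+DHT entered no comparison. F1 and F3 counts were pooled with exact Poisson 95% intervals. Intervals and the floor of 3 counts cover counting error only. DESeq2 1.42.0, limma 3.58.1 on log2(value + 1), other filters, scalings and left-out samples were the alternatives. Those for the description by generation, those without oocyte 21 and the leave-outs read under the minimum level were chosen after seeing the data. The edgeR and pooling steps were tested on simulated data. Copies of the genes were sought with BLAST 2.17.0 among GENCODE vM21 transcripts, and positions are from that annotation on GRCm38, which mm10 denotes. RefSeq windows matched 34 of the 36 symbols. Python 3.11.15, pandas 2.3.3, numpy 2.4.6 and matplotlib 3.10.9 were used.

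Named genes followed a rule: members past the threshold, or else those with the 2 smallest p (F2) or 2 largest ratios (F1, F3) in each direction, and the 5 highest and lowest levels. Mfn1, Dnm1l and Oma1 were added by animal after their values were seen. The members and lists were chosen with earlier results of these data known.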

Additional observations from a re-analysis of the deposited data

Results flagged for a closer look

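Among 36 sets of animal values (12 genes in 3 F2 groups), 5 had an animal far from the rest, where chance alone picks out about 1 in 20 of groups chosen without sight of their values. These genes were partly named for their values, and for Ppargc1a the other animals had no counts, so that rate does not carry over. Opa1 in CD+Veh was at 112 CPM in animal 3, against 54.0 to 55.3 CPM in the other 3 animals. In CD+DHT, Opa1 was at 57.6 CPM in animal 7 against 45.1 to 47.7 CPM in the other 4. Oma1 in HFHS+Veh was at 19.97 CPM in animal 10 against 26.17 to 26.98 CPM. Sirt5 in CD+Veh was at 1.45 CPM (29 counts) in animal 13 against 0 to 0.236 CPM. Ppargc1a in CD+DHT was at 0.240 CPM (6 counts) in animal 6 and at 0 in the other 4.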

How the results depend on the processing

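In F2 the count of members called stayed at 0 in each comparison under all 10 other settings and with each of 13 animals left out in turn. The alternative without oocytes rich in cumulus RNA gave no value in F2, where no oocyte passed that limit. No paired analysis was possible because F2 animal numbers are not shared between groups and the oocyte numbers shared by F1 and F3 groups only name libraries of untested groups.

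The limits are these. F1 and F3 groups are single samples of cells, and their counts of members past 2-fold rest on few oocytes. Counts are given of the members measured, with the share of all genes past 2-fold at that setting in parentheses. For F1 CD+DHT against CD+Veh the count was 0, and 2 of 20 by the mean oocyte (7.68%), 4 of 29 at a minimum of 1 CPM (13.38%) and 1 of 18 by RPKM (6.85%). For F1 HFHS+Veh against CD+Veh it was 1, and 0 by the mean (7.11%) or median (4.13%) oocyte, by RPKM (6.32%), at a minimum of 20 CPM (0.902%) and without cumulus-rich oocytes (2.19%), and 6 of 32 at 1 CPM (12.13%). For F1 HFHS+DHT against HFHS+Veh it was 0, and 1 of 20 by the mean oocyte (4.95%) or RPKM (5.22%), 2 of 19 by the median oocyte (8.89%) and 3 of 32 at 1 CPM (12.52%). For F1 HFHS+DHT against CD+DHT it was 1 (Tomm22, higher), and 3 of 18 by the median oocyte (8.39%), 5 of 30 at 1 CPM (14.62%) and 0 at 20 CPM (0.648%). By the mean oocyte and RPKM it was also 1 of 19 (4.66% in both), but of another member, Nrf1, which was lower. For F3 CD+DHT against CD+Veh it was 1, and 4 of 19 by the mean oocyte (20.8%), 4 of 17 without cumulus-rich oocytes (14.3045%), 2 of 15 by the median oocyte (12.77%), 2 of 17 by RPKM (17.15%) or the stricter oocyte filter (14.09%), 5 of 27 at 1 CPM (25.74%) and 0 at 20 CPM (4.88%). For F3 HFHS+Veh against CD+Veh it was 1, and 6 of 20 by the mean oocyte (21.07%), 5 of 15 by the median oocyte (12.62%), 5 of 29 at 1 CPM (26.604%), 3 of 17 by RPKM (16.32%), 2 of 16 with the stricter filter (14.62%) and 2 of 17 without the animal labelled F2 (17.32%). Leaving out single oocytes gave 0 to 2, 0 to 2, 0 to 3, 1 to 3, 0 to 2 and 1 to 3 in the same order. The shares of all genes in these leave-outs are not given here. The F3 counts by the mean oocyte and RPKM include oocyte 21 of CD+Veh. Bnip3l, Lonp1 and Tomm40 were lower past 2-fold by the mean oocyte in both F3 comparisons. In oocyte 21 they were at 852, 526 and 213 CPM. The count of members apart between generations was 8, and 5 of 11 at a minimum of 20 CPM (55.19% of genes), where fewer genes are measured. It was 6 of 18 by the median oocyte (50.69%) and 7 of 19 under median-ratio scaling (50.74%). By the mean oocyte (44.60%), RPKM (45.22%), the stricter oocyte filter (48.34%) and no oocyte filter (48.37%) it was 7 of 20. It was 9 of 32 at a minimum of 1 CPM (40.20%). Without all oocytes with a label conflict, which leaves 9 groups, it was 9 of 20 (51.10%), Fis1 among them. Other causes were not tested.

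By limma on the mean oocyte, the log2 fold change of Mff in CD+DHT against CD+Veh turned to -0.011 (CPM) and -0.017 (RPKM), and that of Yme1l1 in CD+DHT against HFHS+Veh to -0.012 and -0.047. The Clpx ratio in F3 HFHS+Veh turned to -0.57 by the mean oocyte and -0.42 by RPKM, both with oocyte 21 of CD+Veh. Without that oocyte it was 0.86 by the mean oocyte.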
